A study of Mus musculus with 4 samples.

Results

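The B cells of inguinal white adipose tissue (iWAT), the fat pad of the groin, were described by the chromatin accessibility of their nuclei. Nuclei assigned to the Bcell cluster of the deposited annotation were taken as B nuclei and summed per mouse, which gave 11967 B nuclei of 32552 nuclei in all. They were set beside 9814 T nuclei (the clusters Cd4, Cd8 and Tcell), 1906 myeloid nuclei (Macro and Dend) and 8865 non-immune nuclei (adipocytes, beige adipocytes, adipocyte precursors and vascular cells). Single-nucleus ATAC-seq (snATAC-seq), in which a transposase cuts open chromatin and the cut sites are sequenced nucleus by nucleus, was run on whole tissue of 21 male C57BL/6 mice (C57BL/6J in the study's methods) aged 8 weeks, in 7 groups of 3 mice. A first group was kept at room temperature (22 °C) and sampled at day 0 (day0RT). The other groups were exposed to cold (6.5 °C) for 1, 3 or 7 days (day1C, day3C, day7C), or received CL-316,243 (CL), an agonist of the β3-adrenergic receptor, at 1 mg/kg for 1, 3 or 7 days (day1CL, day3CL, day7CL). No group carried a genetic change, and CL was given at room temperature.

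B cells are the lymphocytes that carry membrane immunoglobulin and give rise to antibody-secreting plasma cells. The transcription factors E2A, EBF1 and PAX5 set up and hold the B cell programme, and the receptor signals through CD79A, CD79B and the kinases LYN, SYK and BTK. Mature B cells also present antigen on MHC class II and depend on the cytokine BAFF for survival. The inguinal pad encloses a lymph node, a site rich in B and T cells, and the sources used here do not say whether it was removed before nuclei were taken.

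The B libraries, 1 per mouse, held 66 to 860 nuclei and 43695 to 1466918 counts, with a median of 538499 counts. A count is 1 nucleus with 1 peak open, and a gene's count adds the peaks over its body and the 2000 bases before its start. Levels are given as CPM, counts scaled to a common library total, so they follow the number and width of a gene's peaks and are compared between classes of nuclei, not between genes. The smallest B library was that of day1CL mouse 3, where 1 count was worth 22.9 CPM, against 0.682 CPM in the largest. The T libraries held 21 to 697 nuclei, the myeloid ones 26 to 241 and the non-immune ones 57 to 1041. Of the B nuclei, 3214 (26.9%) carried a barcode that a nucleus of another mouse also carried, and none of these came from day0RT mice. All 4824 pairs of nuclei with the same barcode had the same stimulus and replicate number and differed in day. Among the 638 pairs made of B nuclei, the median overlap of open peaks was 6.54%, against 6.13% for random B pairs.

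The share of B nuclei in a mouse was 36% ± 10.1 (SD, n = 21), with a lowest value of 5.94%, a median of 38.5% and a highest value of 46.5%. The lowest share belonged to day1CL mouse 3 (66 of 1111 nuclei, 95% exact binomial interval 4.62% to 7.5%). The next was day3CL mouse 2, at 12.4% (154 of 1242 nuclei, interval 10.6% to 14.4%). These intervals cover counting error only. Both mice stood apart from the other 19, and they held 803 and 1041 non-immune nuclei. Of lymphocytes, B nuclei were 56.7% ± 10.6 (SD, n = 21) with a median of 53.4%. In 2 mice the share was far above the rest. It was 88% in day3CL mouse 2, which had 154 B and 21 T nuclei, and 84.8% in day3C mouse 1, which had 484 B, 87 T and 923 non-immune nuclei.

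**Figure D1:**
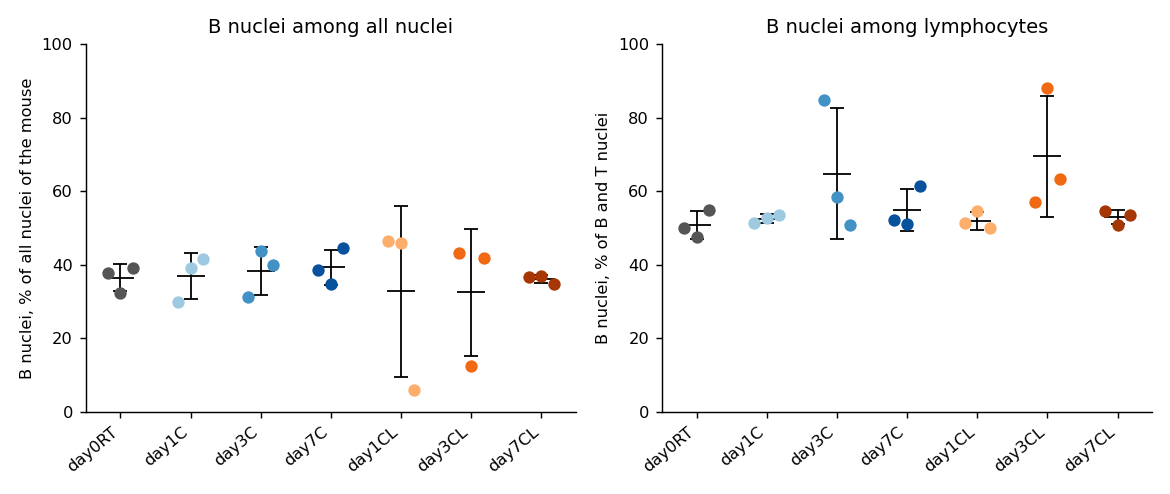
B nuclei as a percent of all nuclei of a mouse (left) and as a percent of B and T nuclei (right), by group. Each point is a mouse and the bars give the group mean and SD (n = 3), where 2 CL mice sit at 5.94% and 12.4% on the left, and 2 mice reach 84.8% and 88% on the right.

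The groups were compared on the share of B nuclei to see whether the treatments moved the B compartment. Group means of the share of all nuclei lay between 32.4% ± 17.3 (SD, n = 3) in day3CL and 39.2% ± 4.84 in day7C, beside 36.4% ± 3.66 in day0RT. The 7 groups overlapped, and a permutation test over the mice gave F = 0.146 with a p of 1. Of lymphocytes, the means ran from 50.7% ± 3.76 in day0RT to 69.4% ± 16.4 in day3CL (permutation p = 0.122, 0.182 adjusted over 3 measures). The median number of open peaks of a B nucleus, 601 to 1674.5 per mouse, gave a permutation p of 0.0977 (0.182 adjusted). None of the 3 tests passed the threshold of 0.05, with the 2 CL mice of low share inside the groups of widest spread.

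The label of the cluster was checked against its markers in each of the 12 deposited clusters. Pax5, the factor that commits cells to the B lineage, had 717 CPM ± 46.8 (SD, n = 21 mice) in the Bcell cluster and at most 118 CPM ± 48.5 elsewhere, in the Dend cluster. Ms4a1, which encodes the surface protein CD20, had 132 CPM ± 19.6 in the Bcell cluster and at most 20.5 CPM ± 28.9 elsewhere, in the Macro cluster. Both markers thus stood highest in the cluster named for B cells, and the B values of Pax5 (639 to 804 CPM) did not overlap those of T nuclei (0 to 136 CPM). Of the defining T cell genes some were near 0 in B nuclei and others, such as Cd3d with a B median of 84 CPM, were not. Cd3e, a chain of the T cell receptor complex, had a median of 2.67 CPM in B and 118 CPM in T libraries. Bcl11b, a factor that T cells need, had 8.1 CPM in B and 486 CPM in T libraries. Lyz2, C1qa and C1qb, genes of macrophages, and Csf3r, a receptor of granulocytes, had a median of 0 in B nuclei and of 13, 13.4, 27.2 and 13 CPM in myeloid nuclei, though other myeloid genes were open in B nuclei, with Mrc1 at 83.8 CPM. Pparg, the factor that drives fat cell formation, had 8.31 CPM against 532 CPM in non-immune nuclei.

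**Figure D2:**
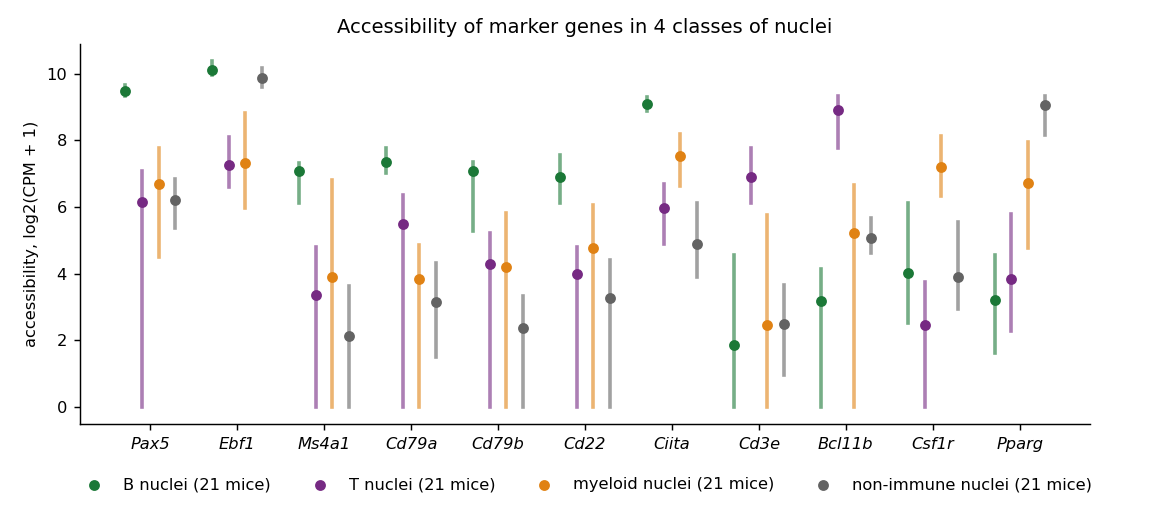
Accessibility of 11 marker genes as log2(CPM + 1) in the 4 classes of nuclei; points are medians and lines run from the lowest to the highest of 21 mice. The B lines of Pax5 and Ciita lie above every line of the other classes, Ebf1 is as high in non-immune as in B nuclei, and Cd3e, Bcl11b and Pparg are low in B nuclei.

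The open regions at the starts of B cell genes show what these values rest on. Positions are those of mouse build mm10 (GRCm38), each window holds 120 bases of a deposited peak, and it is written 5′ to 3′ on the strand given. Capitals mark matches to short motif letters of factors known in B cells. These are CACCTG (E2A, read as CAGGTG on the other strand), CCCNNGGGA (EBF), ATTTGCAT (the octamer bound by OCT factors) and GAANTGAAA (the ETS-IRF composite, which PU.1 binds with an IRF factor). Both strands were searched, and a match is a run of letters and not a shown binding site. The windows are of Cd79a (chr7:24897286-24897405, plus strand) and Cd79b (chr11:106314553-106314672, minus strand), the 2 signalling chains of the receptor, each written on the strand of its gene. The Cd79a window spans the start, and the Cd79b window lies in the first exon. The last window, from the peak with the largest B to T difference, lies 37118 bases from the start of Hhex, a homeobox factor gene (chr19:37471506-37471625, plus strand).
At Cd79a: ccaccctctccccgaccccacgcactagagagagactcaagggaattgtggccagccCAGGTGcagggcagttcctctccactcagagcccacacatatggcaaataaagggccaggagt
At Cd79b: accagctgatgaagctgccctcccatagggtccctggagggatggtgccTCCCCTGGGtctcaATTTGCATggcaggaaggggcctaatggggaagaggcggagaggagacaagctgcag
Peak near Hhex: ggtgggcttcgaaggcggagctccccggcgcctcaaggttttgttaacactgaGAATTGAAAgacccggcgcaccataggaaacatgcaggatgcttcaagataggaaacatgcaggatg

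The Cd79a window held E2A letters and the Cd79b window EBF and octamer letters. The peak at the start of Ms4a1 had a lowest, median and highest B value of 59.5, 103 and 131 CPM of counts in peaks, against a T median of 8.3 CPM (log2 fold change 3.53 ± 0.11 SE). The lowest B mouse was above the highest T mouse, at 20.7 CPM. The Cd79a peak had a B median of 80 CPM and a T median of 6.83 CPM. The Cd79b peak, at 73 against 7.45 CPM, had no count in 1 B library, and 20 of 21 mice were higher in B. The Hhex peak had a B median of 57.1 CPM and a T median of 2.39 CPM, a log2 fold change of 4.26 ± 0.17. The central windows of both Pax5 promoter peaks held none of these letters, although those peaks had B medians of 69.8 and 32.3 CPM against 4.15 and 1.98 CPM in T nuclei. Of the 32851 RefSeq promoters of 300 bases on the same build, 20.2% held the E2A letters, 6.56% the EBF letters, 1.74% the octamer and 1.83% the ETS-IRF letters.

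B nuclei were then compared with the other classes of the same mice across 13415 genes. Since the clusters were made from the same accessibility values, these differences describe the cluster and carry no p-value. A gene was called where the log2 fold change reached 1 in either direction and at least 90% of the mice moved the same way. Against T nuclei, 825 genes were called higher in B (6.15% of those fitted) and 1116 higher in T (8.32%). Without the 3 mice that stood apart above, these counts were 851 and 1166. Against myeloid nuclei, 629 were higher in B (4.69%) and 1173 in myeloid nuclei (8.74%). Against non-immune nuclei, 1704 were higher in B (12.7%) and 3493 in non-immune nuclei (26.0%). Fewer genes were thus called against T and myeloid than against non-immune nuclei, which is no ranking of likeness. The libraries had median counts of 529975 in T, 111961 in myeloid and 1009400 in non-immune nuclei. A mouse without a count in either class adds to neither direction, and the part of depth in these counts was not tested. The median log2 fold change over all genes was 0 against T, 0.06 against myeloid and 0.04 against non-immune nuclei. Scaling by trimmed mean of M-values (TMM) moved the other classes by 0.03, 0.10 and -0.18 on the log2 scale, and the values given are after that scaling.

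Of 14 transcription factors of the B lineage, 7 were called higher in B than in T nuclei and none lower, with a median log2 fold change of 1.36. Against myeloid nuclei 9 were higher, and against non-immune nuclei 10 (medians 1.39 and 2.09). The shares of all fitted genes called higher in B were 6.15% against T, 4.69% against myeloid and 12.7% against non-immune nuclei. With promoter peaks alone the calls on Pou2f2 (0.35), Bcl11a (0.80) and Irf4 (0.76) against myeloid nuclei were lost. So was that on Irf4 (0.64) against non-immune nuclei. DESeq2 (0.78), nuclei of at least 2000 counts (0.93) and leaving out day0RT (0.96) lost Bach2 against non-immune nuclei. Pax5 had a B median of 723 CPM against 69.6 in T, 103 in myeloid and 73.8 in non-immune nuclei, a log2 fold change of 3.30 ± 0.07 SE against T. Spib, an ETS factor of B cells, had 143 CPM against 15.3 in T nuclei (3.02 ± 0.09), and its lowest B mouse (112 CPM) was above its highest T mouse (34.6 CPM). Bcl11a and Mef2c, both factors of B cell development, had log2 fold changes of 3.10 ± 0.07 and 2.93 ± 0.06 against T. Irf8 differed by 1.77 and Tcf3, the gene of E2A, by 2.05.

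Some factors were shared with a single other class. Ebf1, the early B cell factor, had B values of 1007, 1101 and 1329 CPM (lowest, median, highest) and T values of 97.3, 153 and 272 CPM. Its non-immune median was 934 CPM, and the B to non-immune log2 fold change was 0.05 ± 0.04. So Ebf1 separated B from T nuclei but not from cells of the fat tissue. Pou2af1, a coactivator of the octamer factors, was 0.94 above T and 3.97 above non-immune nuclei, and Ikzf3 (Aiolos) was 0.07 above T and 2.73 above non-immune nuclei. Spi1, the gene of PU.1, lay 0.73 below myeloid nuclei on the log2 scale (log2 fold change -0.73 ± 0.07) and 0.92 above T nuclei. Bach2, a repressor that keeps lymphocytes from terminal differentiation, went the other way from most of the list. Its B values were 641, 800 and 876 CPM and its T values 962, 1221 and 1395 CPM (log2 fold change -0.60 ± 0.04), without overlap between the classes.

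The B cell receptor and its kinases were open in B nuclei throughout. Of 17 genes, 13 were called higher in B than in T nuclei, 12 than in myeloid and all 17 than in non-immune nuclei, with medians of 2.14, 1.38 and 3.00. Beside these, 6.15%, 4.69% and 12.7% of all fitted genes were called higher. With promoter peaks alone the Btk calls were lost against T (0.48), myeloid (0.58) and non-immune nuclei (0.88). Against myeloid nuclei Plcg2 (0.71) was lost in the same way, and Prkcb (0.97) in nuclei of at least 2000 counts. Igkc, the constant region of the kappa light chain, had 91.5, 162 and 218 CPM in B (lowest, median, highest) and a T median of 11.3 CPM (3.79 ± 0.10). Blnk, the adaptor that links the receptor to its effectors, had a B median of 369 CPM against 25.4 in T nuclei (3.58 ± 0.07). Cd79a had 162 against 44.2 CPM (1.81 ± 0.07) and Cd79b 136 against 18.7 CPM (2.63 ± 0.09). In each of these 4 genes the lowest B mouse was above the highest T mouse. Ighm, the constant region of IgM, and Ighd, that of IgD, had B to T log2 fold changes of 2.07 ± 0.08 and 2.80 ± 0.16.

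Among the kinases, Syk, which starts signalling from the receptor, had B values of 259, 345 and 411 CPM and a T median of 47.9 CPM (2.82 ± 0.07). Its myeloid median was 240 CPM, and the difference from myeloid nuclei was 0.61 ± 0.08. Lyn, a SRC family kinase, showed the same split, at 3.03 against T and 0.25 against myeloid nuclei. Blk, its B cell relative, was higher against both, at 2.60 and 2.07, as was Bank1, a scaffold of the receptor, at 2.54 and 2.46. Pik3cd, the catalytic subunit of the lymphocyte PI3K, was not called against T nuclei (-0.44 ± 0.04).

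Coreceptors and inhibitory receptors gave 13 of 15 genes higher in B than in T, 11 than in myeloid and 14 than in non-immune nuclei, with medians of 3.00, 1.73 and 3.54. The shares over all fitted genes were 6.15%, 4.69% and 12.7%. With promoter peaks alone Cd37 (0.97) and Inpp5d (0.66) lost the call against T nuclei. Cd37 (0.93) lost that against myeloid and Ptpn6 (0.91) that against non-immune nuclei. Cd24a (1.22) lost that against myeloid nuclei at 2000 counts or more, and Cd81 that against T with every mouse required. Ms4a1 had 68.7, 135 and 158 CPM in B and a T median of 9.33 CPM (3.68 ± 0.12). Fcrla, an Fc receptor-like protein inside B cells, had 121, 181 and 226 CPM and a T median of 15.1 CPM (3.76 ± 0.10). The window just before its start is shown for the E2A letters it holds (chr1:170927590-170927709, plus strand, opposite to the gene).
Before Fcrla: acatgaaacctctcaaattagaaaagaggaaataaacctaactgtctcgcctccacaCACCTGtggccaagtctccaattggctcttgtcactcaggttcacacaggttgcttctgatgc

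Cd22 and Siglecg, sialic acid receptors that damp the receptor signal, were 3.00 ± 0.10 and 3.66 ± 0.16 above T nuclei. Fcer2a (CD23) and Cr2 (CD21), receptors of mature B cells for IgE and complement, were 3.43 ± 0.10 and 3.01 ± 0.11 above T nuclei. Fcgr2b, the inhibitory IgG receptor, was 3.38 above T but only 0.19 ± 0.16 above myeloid nuclei, where its median was 49.1 CPM against 53.5 CPM in B.

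Of 16 genes of survival and costimulation, 7 were higher in B than in T, 3 than in myeloid and 14 than in non-immune nuclei (medians 0.86, 0.19 and 1.56). Over all fitted genes the shares were 6.15%, 4.69% and 12.7%. With promoter peaks alone Bcl2 (0.64), Traf3 (0.85), Nfkb1 (0.52) and Nfkb2 (0.82) lost the call against non-immune nuclei, and Rel (0.49) that against T. DESeq2 lost Traf3 (0.86) and Nfkb2 (0.95) against non-immune nuclei too. With every mouse required Rel was lost. Against myeloid nuclei Bcl2 was lost with DESeq2 (0.92), at 2000 counts or more (0.90) and without day0RT (0.94). Tnfrsf13c, the BAFF receptor, had 77.6, 104 and 153 CPM in B, a T median of 15.7 CPM and a myeloid median of 12.9 CPM (2.53 ± 0.10 and 2.97 ± 0.18). Tnfrsf13b (TACI), which also binds BAFF, was 2.38 and 2.19 above them. Cd40, which takes T cell help, had a B median of 112 CPM against 8.17 in T nuclei (3.53 ± 0.11) and 104 CPM in myeloid nuclei (0.08 ± 0.10). Cd180 and Tlr9, receptors for microbial products, were 3.59 and 3.09 above T nuclei and were not called against myeloid nuclei. Bcl2, which holds off cell death, was not called against T nuclei (-0.05 ± 0.04).

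The genes of MHC class II presentation followed, with 9 of 11 higher in B than in T and in myeloid nuclei and 10 of 11 than in non-immune nuclei (medians 2.81, 1.15 and 3.65). For all fitted genes these shares were 6.15% against T, 4.69% against myeloid and 12.7% against non-immune nuclei. Ciita, the master regulator of class II genes, had 469, 544 and 635 CPM in B, against medians of 61.7 CPM in T, 185 in myeloid and 28.5 in non-immune nuclei. Cd74, the invariant chain, had 556, 641 and 717 CPM in B and a myeloid median of 303 CPM (1.09 ± 0.07). H2-Ab1 had a B median of 389 CPM against 51.6 in T nuclei (2.89 ± 0.07). By this call these 9 genes stood higher in B nuclei than in the class that holds macrophages and dendritic cells. With DESeq2 H2-Aa (0.84), H2-Eb1 (0.93) and Cd74 (0.97) kept the direction but not the call. In nuclei of at least 2000 counts the calls on H2-Aa (0.89), H2-Eb1 (0.87), H2-DMb1 (1.01) and Cd74 (0.97) were lost, and with promoter peaks alone those on H2-Aa (0.81) and Cd74 (0.93). Without the day0RT mice those on H2-Aa (0.86), H2-Eb1 (1.04) and H2-DMb1 (0.95) were lost, and leaving out other groups in turn lost H2-Aa or H2-Eb1 at 0.97 to 1.08. H2-DMa did not follow its partner H2-DMb1, both parts of the complex that loads peptide, with 0.10 ± 0.05 and 2.87 ± 0.10 against T.

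Of 11 trafficking genes, 11 were called higher in B than in non-immune nuclei (median 2.60), beside 12.7% of all fitted genes, and 1 than in T nuclei (median 0.06), beside 6.15%. The 1 gene was Ccr6, a chemokine receptor, with 145, 179 and 229 CPM in B and a T median of 27.7 CPM (2.72 ± 0.08). Cxcr5, which leads B cells into follicles, had a B median of 435 CPM against 320 in T nuclei (0.52 ± 0.05). Ccr7 (-0.29 ± 0.06), which guides entry into lymph nodes, did not reach the call. S1pr1, the receptor for exit from lymph nodes, leaned to T nuclei (-0.73 ± 0.05).

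Genes of other B cell states went both ways against T nuclei, beside 6.15% of all fitted genes called higher in B and 8.32% higher in T. Of 6 fitted germinal centre genes only Rgs13 was higher in B than in T nuclei (91.9 against 6.76 CPM, 3.35 ± 0.12), while S1pr2 and Fas were lower (-1.35 and -1.21). With promoter peaks alone both calls were lost (-1.50 and -0.53), and that on S1pr2 also with every mouse required and without any one of several groups (-1.46 to -1.34). Bcl6, the factor of germinal centre cells, was not called (-0.04 ± 0.05). Of 6 fitted plasma cell genes, Mzb1, a chaperone of antibody secretion, was higher in B (101 against 8.4 CPM, 3.39 ± 0.11). Prdm1 (Blimp-1), the factor of plasma cells, was not called (-0.37 ± 0.05), and Tent5c was lower (-1.77 ± 0.07). Of 9 marginal zone and B1 genes, S1pr3 (2.16) and Bhlhe41 (2.03) were higher in B than in T and Cd5 lower (-1.60), where the S1pr3 and Cd5 calls were lost with every mouse required. Of the switched isotypes only Igha, the constant region of IgA, could be fitted, with 22.9, 48.1 and 64.9 CPM in B and a T median of 5.61 CPM (3.12 ± 0.15). Among 6 fitted precursor genes, Vpreb3 was higher in B than in T (3.31 ± 0.13), and Dntt and Il7r were lower (-1.60 and -3.03).

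**Figure D3:**
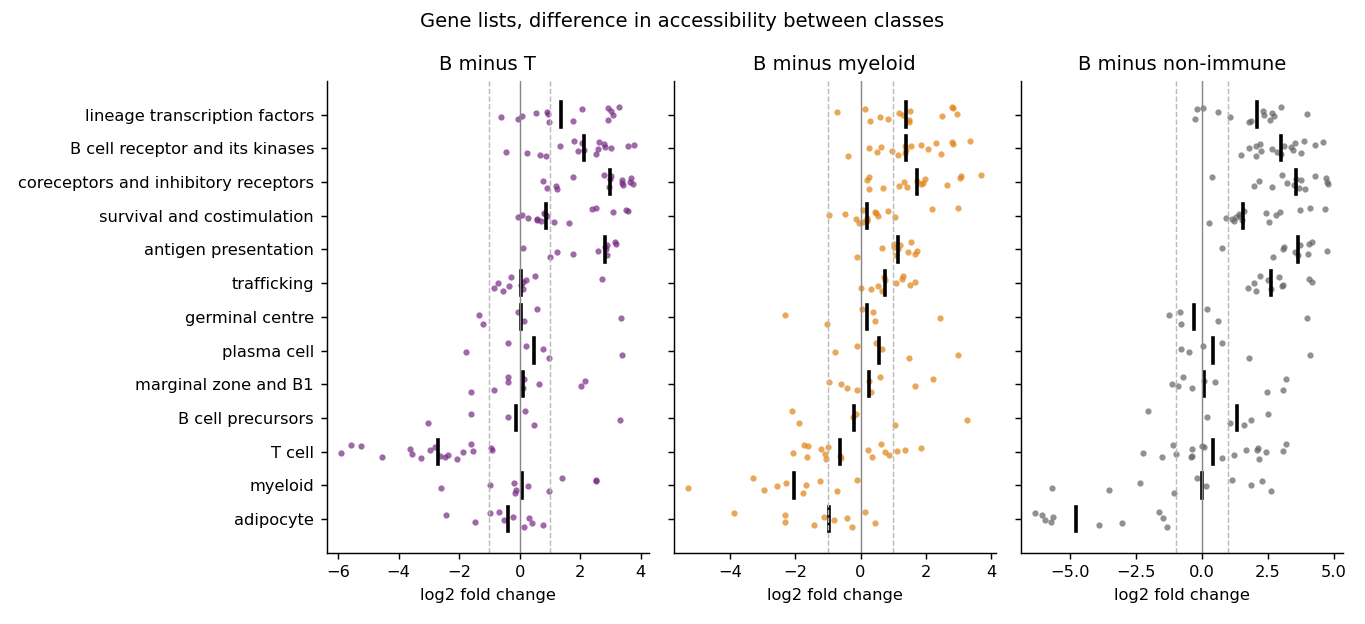
Log2 fold change of B minus T, B minus myeloid and B minus non-immune nuclei for the fitted genes of 13 lists; each point is a gene, bars are list medians and dashed lines mark 1 and -1. The receptor, coreceptor and antigen presentation lists lie to the right in all 3 panels, whereas trafficking genes centre on 0.06 against T nuclei.

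Markers of other cells were read the same way, beside the shares over all fitted genes. Higher in the other class than in B were 8.32% for T, 8.74% for myeloid and 26.0% for non-immune nuclei. Higher in B were 6.15%, 4.69% and 12.7%. Of 18 T cell genes, 16 were higher in T than in B nuclei (median -2.70) and the other 2 were Cd2 and Lck. Their summed B level was 824 to 1080 CPM, against 4465 to 5993 CPM in T nuclei. Cd3d, a chain of the T cell receptor complex, was open in B nuclei with a B median of 84 CPM, while Cd3g, next to it, was at 1.85 CPM. With promoter peaks alone the B to non-immune log2 fold change of Cd3d went from 3.16 to -0.39. Of 4 fitted natural killer genes, 3 were higher in T and 1, Klrb1c, in B nuclei (25.9 against 11.5 CPM), and the calls on Klrb1c, Eomes and Nkg7 were lost with every mouse required. Of 10 fitted myeloid genes, 7 were lower in B than in myeloid nuclei (median -2.02), and Mrc1, the macrophage mannose receptor, had 83.8 CPM in B against 68.2 CPM in myeloid nuclei. With every mouse required the myeloid calls on Adgre1 (-1.23), Itgam (-1.67) and Cd68 (-2.55) were lost. Leaving out single groups also lost Adgre1 (-1.27 to -1.18) and Cd68 (-2.68 to -2.49). All 10 adipocyte genes were lower in B than in non-immune nuclei (median -4.77), at a summed 319 to 404 CPM in B against 1907 to 3614 CPM, with Lipe the most abundant in B. Of 5 fitted stromal genes 4 were lower in B than in non-immune nuclei. Of 3 fitted endothelial genes Pecam1 and Cdh5 were higher in B than in non-immune nuclei and Kdr was not called, but the Pecam1 call was lost with DESeq2 (0.83) and in nuclei of at least 2000 counts (0.94). The stromal chemokines of lymph nodes, Ccl21a, Ccl19 and Cxcl13, had a median of 0 CPM in B, T and myeloid nuclei, and Ccl19 had no count in any B library. The summed level of the 8 lymph node stroma genes in B was 0 to 31.4 CPM, with Tnfsf11 the most abundant. In non-immune nuclei it was 43.1 to 132 CPM. Within that class the APC2 cluster had 21.9 CPM ± 19.8 (SD, n = 19 mice) of Cxcl13 and 13.4 CPM ± 16.9 of Ccl21a. Zeros in B, T and myeloid nuclei thus do not speak to whether lymph node stroma was in the tissue.

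Lists on cell state were read against the same 6.15% and 8.32% of all fitted genes. Of 6 proliferation genes 1, Aurkb, was higher in B than in T nuclei (1.09 ± 0.10). Of 7 fitted immediate early genes and 8 fitted interferon genes none was higher in B, and Nfkbia, Ifit3 and Isg15 were higher in T nuclei. Of 6 glucocorticoid targets Zbtb16 was higher in T (-2.03 ± 0.14). For the receptors that the treatments act on, Adrb3, the target of CL, had 0, 2.77 and 8.63 CPM in B nuclei and a non-immune median of 136 CPM (-5.74 ± 0.13). Of the 8 adrenergic and cAMP genes only Pde4d was called against T nuclei (-1.05 ± 0.05). In nuclei of at least 2000 counts the Aurkb (0.99), Nfkbia (-0.95) and Pde4d (-0.98) calls were lost. Those on Aurkb, Nfkbia, Ifit3, Isg15 and Zbtb16 were lost with every mouse required, that on Aurkb without the day3C mice (0.96), and that on Nfkbia also with promoter peaks alone (-0.42), with nuclei of a barcode of their own (-0.98) and without most single groups (-1.09 to -0.95).

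The genes with the largest differences, in the lists or not, were named by rank. The 10 largest in B against T were Btnl1, Gml2, Igkc, Iglc1, Dmrt1, Fcrla, Hs3st2, Gm14548, Iglc2 and Chil4. Btnl1, a butyrophilin-like gene (chr17:34377132-34386028), had 42.4, 61.9 and 137 CPM in B and a T median of 3 CPM (3.94 ± 0.16). Dmrt1, known as a testis factor (chr19:25505618-25604329), had 60.4, 85 and 106 CPM against 6.27 CPM (3.76 ± 0.14). Hs3st2, a heparan sulfate sulfotransferase (chr7:121391859-121501770), had 101, 135 and 199 CPM against 11.3 CPM (3.74 ± 0.12). In all 3 the lowest B mouse was above the highest T mouse, although none is a usual B cell marker. The lambda constant genes Iglc1, Iglc2 and Iglc3 are near-identical copies, so reads may have been split between them. The largest in T against B were Bcl11b, Thy1, Cd8a, Olfr524, Cd8b1, Cd3e, Lbp, Olfr525, Cpa3 and Als2cl, with log2 fold changes from -5.89 to -5.27. The Cd8a and Cd8b1 calls were lost with every mouse required and the Chil4 call in nuclei of at least 2000 counts (3.20).

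Against myeloid nuclei the largest in B included Gm21973, Gml2, Kcnmb3, Pigr, Slc17a4, Iglc1, Begain, Cd79a and Gad1. Pigr, the polymeric immunoglobulin receptor (chr1:130826684-130852249), had 160, 199 and 275 CPM in B and medians of 13 CPM in myeloid and 20.8 CPM in T nuclei (3.68 ± 0.17 and 3.38 ± 0.09). Gad1, the enzyme that makes GABA (chr2:70553072-70602014), had 121, 145 and 187 CPM in B and medians of 13 and 17.2 CPM there (3.33 ± 0.17 and 3.20 ± 0.09). The 10 largest on the myeloid side were Zfp366, Dscaml1, Cttnbp2nl, Cadm1, Mertk, Slc7a11, Tnfrsf11a, Fmnl2, Tbc1d8 and Rin2. The Dscaml1 call was lost without any one of 5 groups (-5.75 to -5.11) and, as that on Tbc1d8, with every mouse required, and those on Fmnl2 (-4.29) and Rin2 (-4.31) with promoter peaks alone. Zfp366 (DC-SCRIPT), a factor of dendritic cells, had a B median of 2.67 CPM and a myeloid median of 204 CPM (-5.91 ± 0.20), and Mertk, which macrophages use to clear dying cells, 5.54 and 155 CPM (-4.77 ± 0.17).

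Against non-immune nuclei the 10 largest in B were H2-Eb2, Iglc3, Kcnj1, Napsa, Fcrla, Siglecg, H2-DMb2, Ms4a1, Tnfrsf13b and Iglc1. H2-Eb2, a class II gene (chr17:34325665-34341412), had 116, 172 and 210 CPM in B and a non-immune median of 4.73 CPM (4.93 ± 0.09). Kcnj1, a potassium channel gene (chr9:32372493-32399197), had 137, 223 and 262 CPM against 6.5 CPM (4.87 ± 0.09). The largest on the non-immune side were Aspa, Klf15, Klhdc7a, A530016L24Rik, Cyp2e1, Trpv3, Pparg, Lpl, Mb and Ppp1r3c. Several are genes of fat cell metabolism. Lpl, the lipoprotein lipase, had 3.1 CPM in B and 322 CPM in non-immune nuclei (-6.29 ± 0.12).

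The same comparison over 23939 fitted peaks showed where in the genome B nuclei stood apart. Against T nuclei 3919 peaks were higher in B (16.4%) and 3250 in T (13.6%). Against myeloid nuclei 3353 were higher in B (14.0%) and 825 lower (3.45%). For genes the balance was the opposite, with 629 higher in B and 1173 in myeloid nuclei. Myeloid libraries were the shallowest, with a median of 111961 counts against 538499 in B, and the part of depth was not tested. Against non-immune nuclei 6739 were higher in B (28.2%) and 4685 lower (19.6%). Without the low count filter more peaks were called on every side, and against non-immune nuclei the balance turned, with 17020 higher in B and 51837 lower. The median log2 fold change over the fitted peaks was -0.05, 0.05 and -0.1. Of the peaks higher in B than in T, 12.5% lay within 2000 bases of a gene start, against 39.3% of the fitted peaks, and 49.6% lay in gene bodies and 37.9% between genes. The peaks higher in T had much the same split (14.3%, 52% and 33.7%). Of all 189598 deposited peaks, fitted or not, the split was 10.1%, 50.9% and 38.9%. The share at gene starts was thus low beside the fitted peaks but not beside all peaks.

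Within single genes the fitted peaks could all move or divide. A peak could pass the count filter through the class where it is open, so fitted peaks at B cell genes lean to B by selection. All 9 fitted peaks of Pax5, 9 of Mef2c, 7 of Bcl11a, 7 of Ciita, 7 of Bank1, 6 of Cd74 and 5 of Blnk were higher in B than in T. These genes had 27, 30, 22, 16, 29, 6 and 10 peaks in all, so most peaks of several were not fitted. Of the 19 fitted peaks of Ebf1, out of 109, 15 were higher in B and none in T. Bach2 divided, with 4 of 19 fitted peaks higher in B and 9 higher in T. Bcl2 divided too, with 6 of 16 higher in B and 5 in T, whereas its gene level was not called. Gene-level values of Bach2 and Bcl2 therefore sum peaks of opposite direction.

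Motif letters were counted in the central 300 bases of each peak, on both strands, so that sets of unequal peak length could be set side by side. The ETS-IRF letters (GAANTGAAA) stood in 13.4% of peaks higher in B than in T, in 2.68% of those higher in T and in 4.11% of all fitted peaks. The octamer (ATTTGCAT) stood in 6.53%, 0.923% and 2.05%, and the PU.1 letters (AGAGGAAG) in 15.1%, 7.69% and 7.82%. The EBF letters stood in 8.47%, 3.14% and 7.85%, but against the other classes in 8.35% of peaks higher in B and 7.52% of those higher in myeloid nuclei, and in 6.8% and 9.11% for non-immune nuclei. The peak sets of these other classes, here and below, differ in position. At gene starts lay 12.7% of peaks higher in B and 32% of those higher in myeloid nuclei, and 13.3% and 21.7% for non-immune nuclei. The EBF letters stood in 9.24% of fitted peaks near gene starts and 6.95% away from them, and the part of position was not tested. A PU.1 match can share its last bases with an ETS-IRF match, so these 2 counts are not independent.

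Letters of T cell factors went the other way against T nuclei. The RUNX letters (TGTGGTTT) stood in 4.77% of peaks higher in B, 10.2% of those higher in T and 4.02% of fitted peaks, and those of TCF7 and LEF1 (CTTTGAT) in 3.09%, 7.82% and 3.34%. Against the other classes the RUNX letters were more frequent on the B side, in 6.8% of peaks higher in B and 3.88% of those higher in myeloid nuclei, and in 7.33% and 1.86% for non-immune nuclei. The E2A letters (CACCTG), which also serve T cell factors of the same family, stood in 25.5%, 23% and 20.5%. Those of MEF2 (CTAAAAATA) stood in 1.33%, 0.492% and 0.576%. Further sets differed little between the B and T sides, namely NF-kB (GGANTTTCC, 2.17% and 1.6%), the interferon element (GAAANNGAA, 13.9% and 11.8%), AP-1 (TGANTCA, 9.75% and 9.82%), C/EBP (TTGCNNAA, 13.8% and 12%) and the nuclear receptor element (AAAGGTCA, 1.89% and 1.63%). GATA letters (AGATAA) stood in 11.7% and 14.2%, and CTCF letters (AGGGGGCGC) in 0.459% and 0.308%, below the 1.16% of fitted peaks.

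The ETS-IRF, octamer and EBF shares were also taken by position. Away from gene starts, the ETS-IRF letters stood in 14.3% of peaks higher in B, 2.91% of those higher in T and 5.88% of fitted peaks, the octamer in 7.03%, 0.934% and 2.74%, and the EBF letters in 8.02%, 2.69% and 6.95%. Near gene starts the ETS-IRF letters stood in 6.95%, 1.29% and 1.38%, the octamer in 3.07%, 0.86% and 0.988%, and the EBF letters in 11.7%, 5.81% and 9.24%. Against myeloid nuclei, where PU.1 and IRF factors also act, the ETS-IRF letters stood in 7.46% of the peaks higher in B and 5.09% of those higher in myeloid nuclei, and the octamer in 7.1% and 0.606%. These shares describe letters in peaks, with no test, as peaks of the same nuclei are not replicates.

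**Figure D4:**
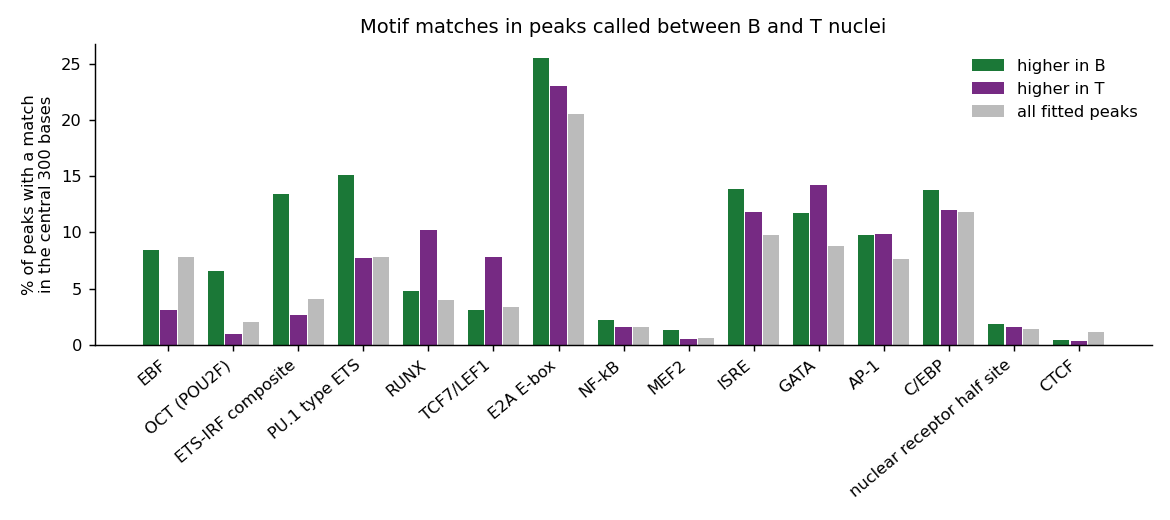
Percent of peaks with a match to each set of motif letters in the central 300 bases, for peaks higher in B than in T nuclei, peaks higher in T and all fitted peaks. The ETS-IRF bar reaches 13.4% on the B side against 2.68% on the T side, and the RUNX bar 4.77% against 10.2%.

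The last question was whether cold or CL changed accessibility within the B nuclei. The treatment was not used to make the clusters, so these contrasts were tested with edgeR over 11490 genes, with 3 mice against the 3 day0RT mice. In day1C, 61 genes rose (0.531% of those fitted) and 7 fell (0.0609%). In day1CL, 202 rose (1.76%) and 106 fell (0.923%), and in day7CL 121 rose (1.05%) and 37 fell (0.322%). In day7C none rose (0%) and 2 fell (0.0174%), namely Gimap6 and H2-Aa. In day3C and day3CL no gene passed (0%), where 825 and 746 had an unadjusted edgeR p under 0.05 and DESeq2 called 0 in both. An F test over all 7 groups passed for 252 genes (2.19%). DESeq2, another count model, called far fewer than edgeR, with 5 in day1C, 0 in day7C and 31 in day1CL. In day7CL it gave no adjusted p to 10024 genes by its own filter on low counts, among them 131 of the 158 genes that edgeR called, and called 9 of the other 1466. With promoter peaks alone edgeR called 3 genes in day1C, 37 in day1CL and 4 in day7CL, and with nuclei of a barcode of their own 31, 176 and 99. The depth of B nuclei differed between the groups, with a median number of open peaks per nucleus of 1030 ± 220 (SD, n = 3) in day0RT, 740 ± 127 in day1C, 630 ± 29.3 in day1CL and 981 ± 383 in day7CL, against 1382 ± 178 in day3C, 1041 ± 291 in day3CL and 1143 ± 493 in day7C. All 3 day1CL mice lay below every day0RT mouse, and the part of depth in the calls was not tested. Single mice carried much of these counts. The 68 calls of day1C became 10 without day1C mouse 3 and 20 without day0RT mouse 3, and 41 and 42 without day0RT mouse 1 and day1C mouse 2. The 308 calls of day1CL became 47 and 115 without day1CL mice 1 and 2, and 121 and 171 without day0RT mice 1 and 3. Those of day7CL, 158 in all, became 14 without day7CL mouse 1, and 30 and 63 without day0RT mice 1 and 3. In day7C there were 0 calls without day0RT mouse 1, 1 call without day7C mouse 1, day1CL mouse 1 or day1CL mouse 2, and 5 calls without day7C mouse 2.

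**Figure D5:**
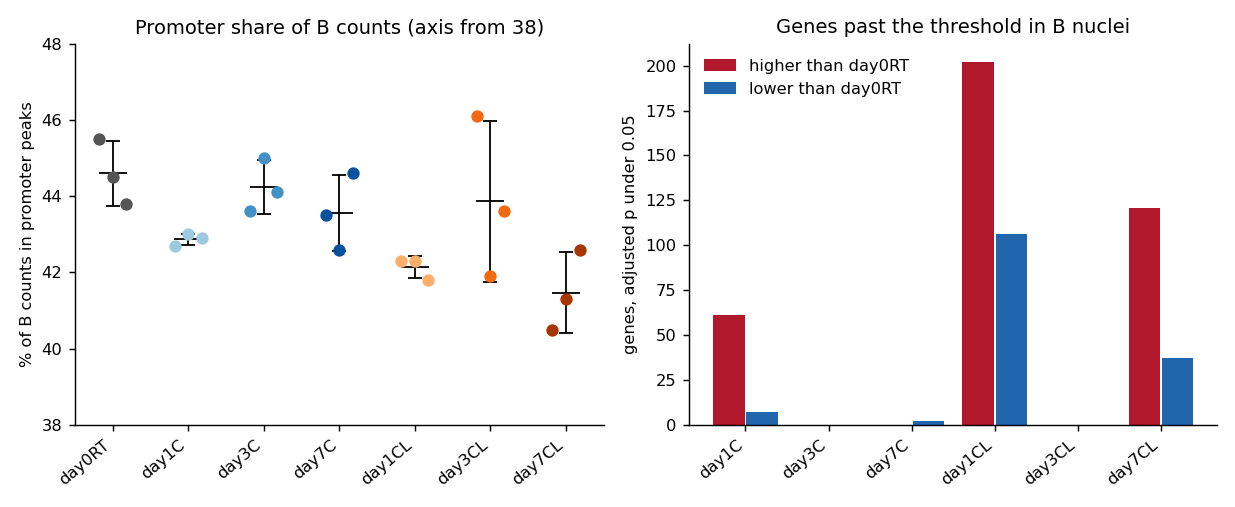
Left, percent of B counts in promoter peaks by group, where each point is a mouse, bars are mean and SD (n = 3) and the axis starts at 38; right, genes of B nuclei with an edgeR adjusted p under 0.05 against day0RT, in each direction. The promoter share is lowest in day7CL, at a mean of 41.5% against 44.6% in day0RT, and the calls fall in day1C, day1CL and day7CL.

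Among called genes whose B libraries averaged 20 counts or more and whose 3 treated mice all moved alike, Ptprd, Plcb1 and Nav3 had the largest rises in day1C, day1CL and day7CL. Called genes of fewer counts had larger log2 fold changes, reaching 3.34 in day1C and 3.20 in day1CL. Ptprd, a receptor tyrosine phosphatase with a very long gene (chr4:75941238-78211961), had 41.3, 49.5 and 15.3 CPM in the day0RT mice. It had 93.1, 80.4 and 135 CPM in day1C, 101, 121 and 68.7 CPM in day1CL, and 124, 117 and 71.8 CPM in day7CL. No treated mouse of these groups overlapped the day0RT mice, though the 68.7 CPM of day1CL mouse 3 is 3 counts. The log2 fold changes were 1.74 ± 0.21 (edgeR adjusted p = 3.93e-10), 1.74 ± 0.23 (9.78e-09) and 1.80 ± 0.20 (9.06e-13). Plcb1, a phospholipase C (chr2:134786067-135475258), had 14.4, 18.8 and 14.2 CPM at day 0 and 40.4, 66.6 and 57.5 CPM in day1C (1.89 ± 0.29, edgeR adjusted p = 2.54e-06). Nav3, a neuron navigator gene (chr10:109681259-110456204), had 21.7, 18.8 and 5.45 CPM at day 0 and 37.3, 43.7 and 78.7 CPM in day1C (1.97 ± 0.30, edgeR adjusted p = 1.84e-06). With DESeq2 the Ptprd call of day1C was lost (1.62), and in day7CL all 3 genes were without an adjusted p. The Nav3 call of day1C was lost without day1C mouse 3 (1.47), that of day7CL without day0RT mouse 3 (1.00) or day7CL mouse 1 (1.28), and the Plcb1 call of day7CL without day7CL mouse 1 (1.41). In T nuclei of the same mice Ptprd also rose, by 1.27, 0.97 and 1.32 on the log2 scale, and the edgeR test of the difference between B and T did not pass (adjusted p from 0.709 to 0.979).

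The genes that rose were long, with a median of 436416 bases in day1C, 175440 in day1CL and 243147 in day7CL, against 25682 over all fitted genes. They were also little open in B nuclei at day 0, a level that is part of the contrast itself, and widely open in non-immune nuclei, which it did not use. Their median day 0 level in day1C was 11.2 CPM in B, 21.9 in T, 36.8 in myeloid and 236 in non-immune nuclei. Over all fitted genes it was 65, 64.4, 63.2 and 51.6 CPM. Of the 61 genes that rose in day1C, 58 (95.1%) had a higher day 0 level in non-immune than in B nuclei, as had 169 of 202 (83.7%) in day1CL and 99 of 121 (81.8%) in day7CL, against 32.6% of all fitted genes. Of the genes that fell, 0 of 7, 6 of 106 and 2 of 37 had. Most of the genes that rose were also higher in the other classes than in B. The shares were 91.8%, 75.7% and 69.4% for T nuclei (47.0% of all fitted genes). For myeloid nuclei they were 90.2%, 85.1% and 79.3% (41.6% of all fitted genes). The summed adipocyte genes in B libraries were 335 CPM ± 17.5 (SD, n = 3) in day0RT, 400 ± 4.46 in day1C, 359 ± 10.6 in day1CL and 360 ± 35.5 in day7CL. In the groups with few or no calls they were 354 ± 19.9 (day3C), 356 ± 30 (day3CL) and 342 ± 3.2 (day7C). The stromal genes were 154 ± 26 in day0RT, 173 ± 39.4 in day1C, 214 ± 22.6 in day1CL and 190 ± 16.5 in day7CL. In day3C, day3CL and day7C they were 179 ± 19.6, 150 ± 18.4 and 181 ± 31.5. The myeloid genes were 386 ± 17.8 in day0RT, 394 ± 21.3 in day1C, 465 ± 75.8 in day1CL and 420 ± 14.6 in day7CL. In day3C, day3CL and day7C the myeloid genes were 386 ± 10, 397 ± 15.4 and 398 ± 20.6. The T cell genes were 984 ± 59.7 in day0RT and 952 ± 119 in day1CL. The promoter share of B counts was 44.6% in day0RT and 42.9%, 42.1% and 41.5% in day1C, day1CL and day7CL. The part of these levels in the calls was not tested.

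By the same rule the largest falls were smaller than the largest rises. In day1C they were Fgfbp3, Mrpl11 and Mtmr9, in day1CL Sp9, Kcnh6 and Nt5c, and in day7CL Eif2s2, Scarf2 and Cox6a1. Mrpl11, a mitochondrial ribosomal protein gene, had 53.6, 65.9 and 55.6 CPM at day 0 and 21.7, 36.8 and 19.7 CPM in day1C (-1.14 ± 0.26, edgeR adjusted p = 0.00698). Cox6a1, a subunit of cytochrome c oxidase, had 98, 94.2 and 96 CPM at day 0 and 52.9, 60.5 and 66.1 CPM in day7CL (-0.74 ± 0.17, edgeR adjusted p = 0.00579). In neither case did the treated mice overlap day 0. DESeq2 called none of the 6 genes of day1C and day1CL and gave no adjusted p to the 3 of day7CL. Mrpl11 was also lost with promoter peaks alone (-1.10), with nuclei of a barcode of their own (-1.09) and without day1C mouse 3 (-0.90), and Cox6a1 with promoter peaks alone (-0.68) and without day0RT mouse 1 (-0.73) or day7CL mouse 1 (-0.60). Each of the other 7 was lost without at least 1 single mouse, with values from -0.87 to -1.24 for Fgfbp3, -0.90 to -0.96 for Mtmr9, -1.12 and -1.31 for Sp9, -0.90 to -1.27 for Kcnh6, -0.78 for Nt5c, -0.73 for Eif2s2 and -0.72 to -0.88 for Scarf2. Mtmr9 and Sp9 were also lost with promoter peaks alone (-0.98 and -0.67), Kcnh6 with at least 100 nuclei (-1.16), and Scarf2 with a replicate block, only the 2 groups compared (-0.85 in both) or nuclei of a barcode of their own (-0.96).

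Pax5 had log2 fold changes of -0.25 to -0.05 over the 6 contrasts and Ms4a1 of -0.25 to 0.14, and neither passed. Of the 175 fitted genes of all lists, none passed in day1C, day3C or day3CL, 1 in day7C, 5 in day1CL and 1 in day7CL, beside the background shares above. H2-Aa, an MHC class II chain, had 272, 261 and 242 CPM at day 0, and fell to 167, 156 and 190 CPM in day7C (-0.55 ± 0.11, edgeR adjusted p = 0.0145) and to 173, 197 and 68.7 CPM in day1CL (-0.54 ± 0.13, adjusted p = 0.0109). The treated mice lay below all day 0 mice, though the 68.7 CPM of day1CL mouse 3 is 3 counts. In T nuclei of the same mice H2-Aa fell in day7C (-1.42 ± 0.36, edgeR adjusted p = 0.0387) and had a log2 fold change of -0.88 ± 0.39 in day1CL, and the edgeR test of B against T did not pass (adjusted p 0.677 and 0.959). The day7C call on H2-Aa was lost with DESeq2, with nuclei of a barcode of their own and without day0RT mouse 1 (-0.50) or day7C mouse 1 (-0.51). Its day1CL call was lost with DESeq2, promoter peaks alone and nuclei of a barcode of their own, and without day0RT mouse 1 (-0.49) or day1CL mouse 1 (-0.50). Gimap6, a GTPase gene of lymphocytes, had 183, 144 and 160 CPM at day 0 and 104, 110 and 117 CPM in day7C (-0.57 ± 0.12, edgeR adjusted p = 0.0384), a call lost with DESeq2, with nuclei of a barcode of their own and without day0RT mouse 1 (-0.47) or 3 (-0.60), day1CL mouse 1 or 2 (-0.57 in both), or day7C mouse 1 (-0.53) or 3 (-0.64).

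In day1CL, Syk fell from 404, 379 and 411 CPM to 259, 279 and 389 CPM (-0.55, edgeR adjusted p = 0.00192), where day1CL mouse 3, the one with few B nuclei, lay among the day 0 mice. Fcrla fell from 221, 193 and 206 to 177, 121 and 137 CPM (-0.53 ± 0.14, edgeR adjusted p = 0.024). Fos, an immediate early gene, went from 91.8, 75.4 and 60 to 47.5, 33.4 and 68.7 CPM (-0.90 ± 0.24, edgeR adjusted p = 0.0176), with overlap. Pde4d, a phosphodiesterase that breaks down cAMP, rose from 255, 259 and 290 to 352, 368 and 298 CPM (0.39, edgeR adjusted p = 0.0418). In day7CL, Trac, the constant region of the T cell receptor alpha chain, rose from 9.29, 9.42 and 16.4 to 28.8, 34.3 and 20.1 CPM (1.24, edgeR adjusted p = 0.0487). The summed T cell genes in B libraries were 984 ± 59.7 CPM in day0RT and 1005 ± 64.8 CPM in day7CL, and their part in the Trac value was not tested. With DESeq2 Syk remained called, Fcrla, Fos and Pde4d were not, and Trac had no adjusted p. Promoter peaks alone lost Fcrla (-0.45), Fos (-0.84) and Trac (1.30), and nuclei of a barcode of their own lost Fcrla (-0.46), Pde4d (0.40) and Trac (1.22). Without the low count filter Pde4d (0.34) and Trac (1.21) were lost, and Trac also with only the 2 groups compared (1.25). Leaving out day1CL mouse 1 lost Syk (-0.49), Fos (-1.09) and Pde4d (0.40), and leaving out day1CL mouse 2 lost Fcrla (-0.30), Fos (-0.65) and Pde4d (0.33). Without day0RT mouse 1, Fcrla (-0.48), Fos (-0.68), Pde4d (0.33) and Trac (1.02) were lost, without day0RT mouse 2 Pde4d (0.37) and Trac (1.16), and without day0RT mouse 3 Fcrla (-0.54) and Trac (1.61). Trac was also lost without day7CL mouse 1 (1.23) or 2 (1.12) and without several mice of groups outside the contrast (1.23 to 1.24).

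Cold and CL were set against each other at the same day. In day1 7 genes differed (0.0609% of those fitted), in day3 0 (0%) and in day7 25 (0.218%). The change in B was also set against the change in T nuclei of the same mice over 12438 genes, which passed for 1 gene in day1C (0.00804%), 4 in day1CL (0.0322%), 2 in day7C (0.0161%) and 0 (0%) in the other groups. The genes, named here because they were so few and after their values were seen, were Stk39 in day1C, Slco3a1, Ikzf2, Pgm1 and Parvb in day1CL, and Rapgef5 and Myo1e in day7C. In T nuclei, over 11805 genes, 17 rose (0.144%) and 2 fell (0.0169%) in day1C, 190 rose (1.61%) and 88 fell (0.745%) in day1CL, 30 rose (0.254%) and 17 fell (0.144%) in day7C, and 88 rose (0.745%) and 23 fell (0.195%) in day7CL. In day3C 1 rose (0.00847%) and 1 fell (0.00847%), and in day3CL none passed (0%), where 823 had an unadjusted edgeR p under 0.05. Of the 6 treated groups day1CL had the most calls in both classes with all mice used. In B nuclei its 308 calls became 47 without day1CL mouse 1, where day7CL had 158 with all mice.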

How the data were processed

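Nuclei of whole iWAT were profiled by snATAC-seq with combinatorial indexing. The authors merged 2 sequencing runs, aligned reads to mm10 with Bowtie2 2.4.3, filtered them with SAMtools 1.11, removed duplicates within each barcode, called peaks per cluster with MACS2 2.1.4, clustered and named nuclei with Signac 1.1.1 and took out doublets with Scrublet. The deposited counts are a binary matrix of 189598 peaks by 32552 nuclei with 65588856 entries of 1, in which 1 means that the peak was open in that nucleus. The mouse, group and cluster of each nucleus were read from the deposited annotation, since the sample labels name only 4 sequencing lanes. Summed counts are therefore numbers of nuclei with a peak open, and repeated cuts of a peak in 1 nucleus are not kept.

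Entries were summed per mouse and class in libraries of at least 10 nuclei. Of 21945 genes of GENCODE vM21, 17186 had a peak over the body or the 2000 bases upstream, and 3.38% of peaks counted for 2 or more genes, so neighbouring genes can share counts. Strand is not defined for this assay. Genes were filtered (filterByExpr, minimum count 10, minimum total 15), scaled by TMM and fitted with edgeR 4.0.16 in R 4.3.3, with mouse as a block for the classes and no block for the treatments. Treatment p-values came from edgeR's quasi-likelihood test with Benjamini-Hochberg adjustment, with a threshold of 0.05, and all 7 groups shared 1 estimate of the spread. Shares were compared by permutation of group labels (100000 draws, F statistic). Each mouse is a separate animal. The fitting code was tested on simulated data. DESeq2 1.42.0, Python 3.11.15, numpy 2.4.6, pandas 2.3.3, scipy 1.17.1 and matplotlib 3.10.9 were also used.

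The named genes were the members of 23 gene lists, the 10 called genes with the largest change on each side of a class comparison with a mean of at least 20 counts, and the 3 largest on each side of a treated group with a mean of at least 20 counts and the same direction in all 3 mice. The named peaks were the 5 largest of B over T and the promoter peaks of Pax5, Ms4a1, Cd79a and Cd79b. Some list genes and peaks are not reported here. The B nuclei, lists, motifs and tests were chosen with earlier results of these data known. Alternatives were DESeq2, the fit without a low count filter, gene counts from promoter peaks alone, nuclei with at least 2000 counts, larger minimum numbers of nuclei, only the 2 groups compared, a replicate block, a stricter call over every mouse, and each mouse or group left out. Restriction to nuclei with a barcode of their own, removal of the 3 mice of few T nuclei, CL against cold and the change in B against T were chosen after seeing the data.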

Additional observations from a re-analysis of the deposited data

Results flagged for a closer look

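The results below were picked out because 2 groups or 2 classes differed in a test of the difference itself with edgeR, over all genes fitted, and each is given by its values alone. Ptprd in B nuclei was higher in day7CL than in day7C, with a log2 fold change of 1.25 ± 0.18 (edgeR adjusted p = 3.43e-07). It had 124, 117 and 71.8 CPM in the day7CL mice against 62.8, 48.7 and 39.5 CPM in the day7C mice, without overlap.

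For 7 genes the change from day 0 in B nuclei differed from that in T nuclei of the same mice. Stk39, a kinase of ion transport, changed by 1.63 ± 0.30 more in B than in T in day1C (edgeR adjusted p = 0.000832). In B it went from 23.7, 11.8 and 9.82 CPM to 18.6, 62 and 49.9 CPM, with day1C mouse 1 among the day 0 mice, and in T from 261, 251 and 241 to 257, 225 and 222 CPM. In day1CL, Slco3a1, an organic anion transporter, changed by 2.13 ± 0.43 more in B (edgeR adjusted p = 0.00882), from 8.25, 4.71 and 6.54 to 34.5, 29.7 and 22.9 CPM in B and by 0.00 in T. Ikzf2 (Helios), a factor of the Ikaros family, changed by 1.80 ± 0.40 more in B (edgeR adjusted p = 0.0273), from 10.3, 11.8 and 6.54 to 43.2, 26 and 45.8 CPM, and Pgm1, a phosphoglucomutase, by 1.41 ± 0.31 more (edgeR adjusted p = 0.0273), from 34, 28.3 and 37.1 to 77.7, 78 and 91.5 CPM. The third treated value of each is that of day1CL mouse 3, where 22.9 CPM is 1 count. It is thus 1 count for Slco3a1 and few counts for Ikzf2 and Pgm1.

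Stk39, Slco3a1 and Ikzf2 thus had day 0 levels in T nuclei far above those in B, at 188 to 232 CPM for Slco3a1 and 145 to 181 CPM for Ikzf2. Parvb, a protein of cell adhesions, changed the other way in day1CL (-1.49 ± 0.34, edgeR adjusted p = 0.0273), with -0.46 in B and 1.00 in T nuclei. In day7C, Rapgef5 (1.19 ± 0.26, edgeR adjusted p = 0.0413) and Myo1e (0.88 ± 0.20, edgeR adjusted p = 0.0413) changed by 0.06 and 0.05 in B and by -1.11 and -0.84 in T. The part of shared barcodes or of reads from other nuclei in these values was not tested. The tests of CL against cold and of B against T were run in 1 setting only, without the alternatives given below.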

How the results depend on the processing

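Of the class values of called and named genes 5226 stayed on their side of the call and 224 were weaker. With promoter peaks only 2 reversed, namely Notch2 (from -1.13 to 0.09) and Cd3d (from 3.16 to -0.39), both against non-immune nuclei. Of the treatment values 691 stayed and 99 were weaker. Counts against T, myeloid and non-immune nuclei (B side, then other side) were 427 and 500, 318 and 419, and 865 and 1957 with promoter peaks only. With nuclei of at least 2000 counts they were 432 and 583 for T, 388 and 764 for myeloid and 2188 on the non-immune side. With every mouse required, 588 genes were higher in T, 402 higher in B than in myeloid and 482 higher in myeloid nuclei. Peaks without the low count filter gave 9813 and 8829, 7620 and 1450, and 17020 and 51837, and with every mouse required 2571 and 1185 against T and 1657 and 151 against myeloid nuclei.

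The treatment counts moved with the model and with the peaks used. DESeq2 called 5 genes in day1C, 0 in day7C, 31 in day1CL and 9 in day7CL (among the 1466 genes it gave an adjusted p), against 68, 2, 308 and 158 with edgeR. Promoter peaks only gave 3 in day1C, 3 in day3C, 37 in day1CL, 4 in day7CL and 28 over all groups. No low count filter gave 2 in day3C, and only the 2 groups compared gave 41 in day1C. Nuclei with a barcode of their own gave 31 in day1C, 0 in day7C, 176 in day1CL, 99 in day7CL and 112 over all groups. The cause of these shifts was not tested. Leaving out 1 mouse gave 10 to 78 calls in day1C (10 without day1C mouse 3), 0 to 2 in day3C, 0 to 5 in day7C, 47 to 345 in day1CL and 14 to 191 in day7CL (47 and 14 without mouse 1 of those groups), 0 to 1 in day3CL and 155 to 322 over all groups. The adjusted permutation p of the shares then ran from 0.727 to 1 of all nuclei, from 0.116 to 0.431 of lymphocytes and from 0.108 to 0.33 for counts per nucleus.

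Mice of the same number did not deviate together (correlations -0.149 to 0.173, median 0.00124), and the number was not taken as a pairing, although nuclei with the same barcode came from mice of the same stimulus and number. The experiment was run in 3 batches, which the sources used here do not tie to a number. A replicate block gave 2 calls in day3C and 4 in day7C and moved no other count by over 1.5 times. Depth limits day1CL mouse 3 most, where a gene under 22.9 CPM is less than 1 count.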

Other observations

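Sfi1, a centrosomal gene picked here after its values were seen, was the 1 gene called between CL and cold at both day 1 and day 7. In B nuclei it had 667, 742 and 651 CPM in day0RT and 1518, 1482 and 1533 CPM in day1CL (log2 fold change 1.12 ± 0.09, edgeR adjusted p = 3.88e-22). It had 1127, 960 and 1088 CPM in day1C (0.64 ± 0.09, adjusted p = 6.33e-08) and 1192, 1228 and 988 CPM in day7CL (0.77 ± 0.09, adjusted p = 2.66e-12). The 3 treated mice lay above all day 0 mice in each group. Day3C, day3CL and day7C did not pass, at 0.25, 0.11 and 0.29. In T nuclei the day 0 mice had 829, 1004 and 855 CPM and the day1CL mice 1685, 1585 and 1855 CPM. The T values were also above all day 0 mice in day3C (1236, 1264 and 1095 CPM) and day7C (1423, 1253 and 1093 CPM). In day3CL they were 1041, 2120 and 967 CPM, where mouse 2 had 21 T nuclei.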
